A study of Mus musculus with 8 samples.

Results

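The collagen genes and the genes of the Adamts and Adamtsl metalloproteinase families were described in 4 RNA samples of mice homozygous for a gene-trap allele of the sodium channel gene Scn2a (HOM, genotype Scn2agt/gt) and 4 samples of wild-type littermates (WT). Members were protein-coding genes of the deposited count table whose GENCODE symbol is Col, Adamts or Adamtsl followed by family numbers, with at least 10 counts in 4 or more libraries. Of 68 such genes 67 met the count rule, out of 54446 genes in the table and 17395 tested; 43 were collagens, 19 Adamts and 5 Adamtsl genes. The count rule read the levels without regard to genotype, and the families themselves were chosen with earlier results of these data known. Both groups came from pairings of mice carrying 1 trapped allele, and the labels give the strain as C75BL6 and the source as neuron. The mice are called adult, and no exact age, sex or brain region is given. Nothing says that every sample is its own mouse, so each p-value covers sample-to-sample spread that may be technical. The gene trap, a cassette whose insertion interrupts the transcript of its host gene, is not restricted by the labels to any cell type.

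Collagens are trimeric proteins of the extracellular matrix, built as fibrils, as the sheet-like networks of basement membranes, as beaded filaments or as proteins anchored in the cell membrane. In brain most of them are made by vascular and meningeal cells, and some by neurons and glia. ADAMTS proteins are secreted metalloproteinases: some trim the amino-terminal propeptide of fibrillar procollagens, others cut the proteoglycans aggrecan, versican and brevican that surround neurons, and ADAMTSL proteins share their ancillary domains but have no protease domain.

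Libraries held 27993412 to 35339890 counts in HOM and 29053382 to 37538988 in WT, and the members took 0.0882% to 0.100% of the counts of HOM libraries against 0.0729% to 0.0818% of those of WT libraries. Levels are TMM-scaled CPM, counts relative to library size. The trapped gene checked the labels: Scn2a stood at 122, 147, 131 and 112 CPM in HOM replicates 1 to 4, against 477, 371, 477 and 415 CPM in WT replicates 1 to 4. Some libraries stood apart. WT replicate 4 was the richest in choroid plexus transcripts, with 1824 CPM summed over 17 markers against 163 to 454 CPM in the other WT libraries. Most of these WT sums was 1 gene, Ttr, at 1517 CPM in WT replicate 4 and 122 to 354 CPM in the others. The mean log2 CPM of the 17 markers was 4.04 in WT replicate 4 and 1.15 to 2.42 in the other WT libraries. HOM replicate 4 held 2 counts over 4 Y-linked genes against 4452 to 5984 in every other library. Against the label neuron, markers of glia were abundant: the myelin gene Mbp averaged 1795 ± 142 CPM in HOM and 2141 ± 408 CPM in WT, and the astrocyte transporter gene Slc1a2 averaged 2724 ± 329 CPM in HOM and 3319 ± 147 CPM in WT (SD, n = 4 each).

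Of the 67 members 8 rose in HOM, 3 fell and 56 did not pass (edgeR quasi-likelihood test, adjusted p under 0.05 over all 17395 genes). That was 16.4% of the members, where 5.4% of all genes tested were called, 2.47% higher and 2.94% lower. The genes that rose were the collagen genes Col6a2, Col6a1, Col5a1, Col23a1, Col16a1 and Col4a2 and the protease genes Adamts2 and Adamts16; those that fell were Adamts15, Adamts8 and Col8a1. All fold changes were below 2 except that of Col8a1, whose HOM mean was 46.9% of the WT mean. The libraries of the genotypes did not overlap at 18 members, 14 higher and 4 lower, or 26.9% of them, against 14.1% of all genes tested, 6.63% higher and 7.47% lower. The median log2 fold change was 0.13 over the members and 0.00 over all genes tested. In bulk RNA fewer cells of a type and less RNA per cell cannot be told apart.

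**Figure D1:**
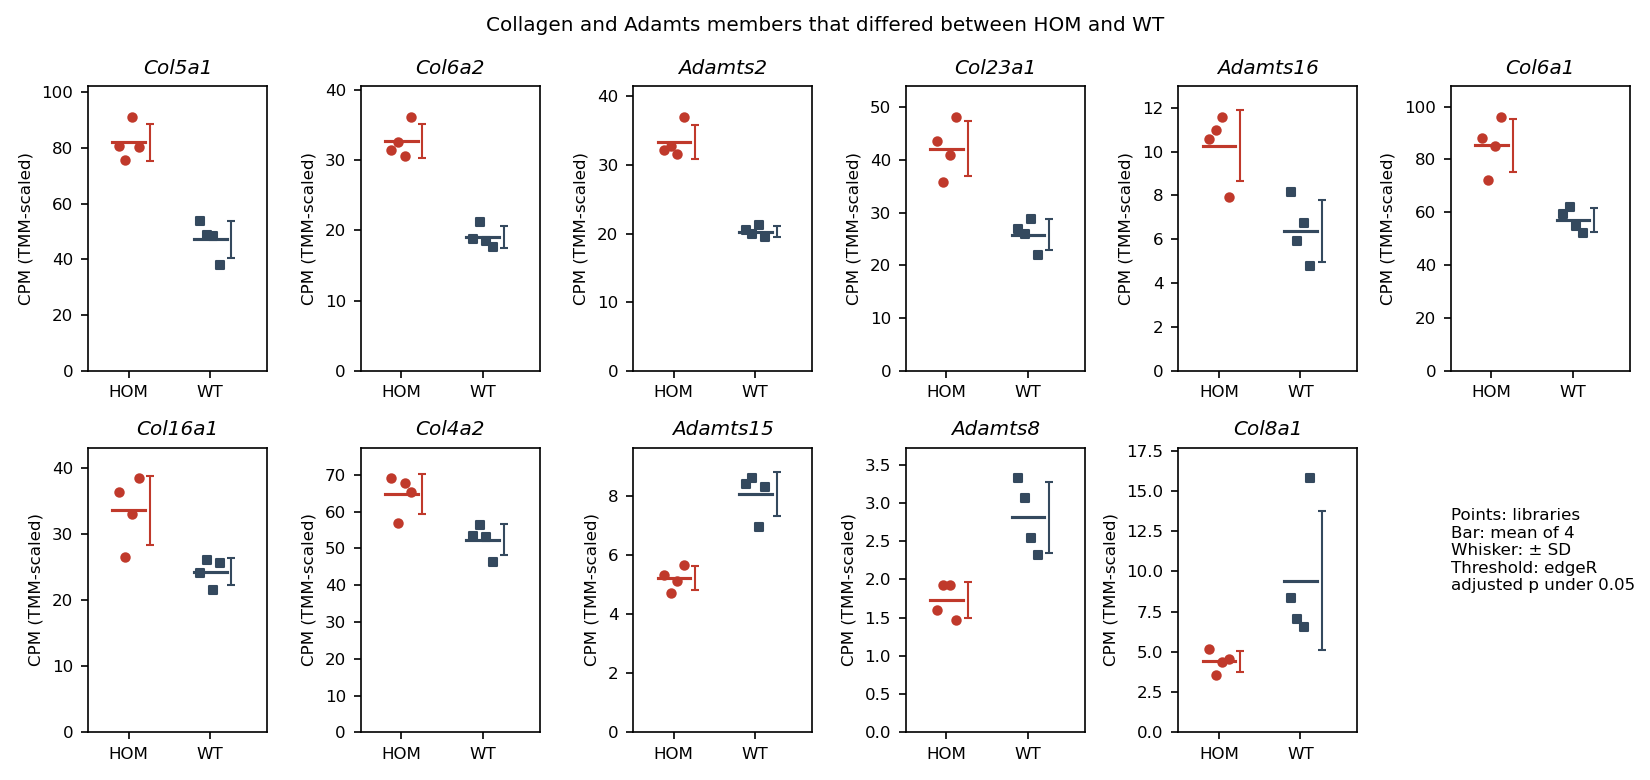
TMM-scaled CPM (linear axes from 0) of the 11 collagen and Adamts genes that passed the threshold, with HOM libraries as circles and WT libraries as squares, the mean as a bar and the SD as a whisker (n = 4 each). The HOM and WT points do not overlap in 10 panels; in the Adamts16 panel HOM replicate 4 at 7.94 CPM lies below WT replicate 1 at 8.14 CPM.

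**Figure D2:**
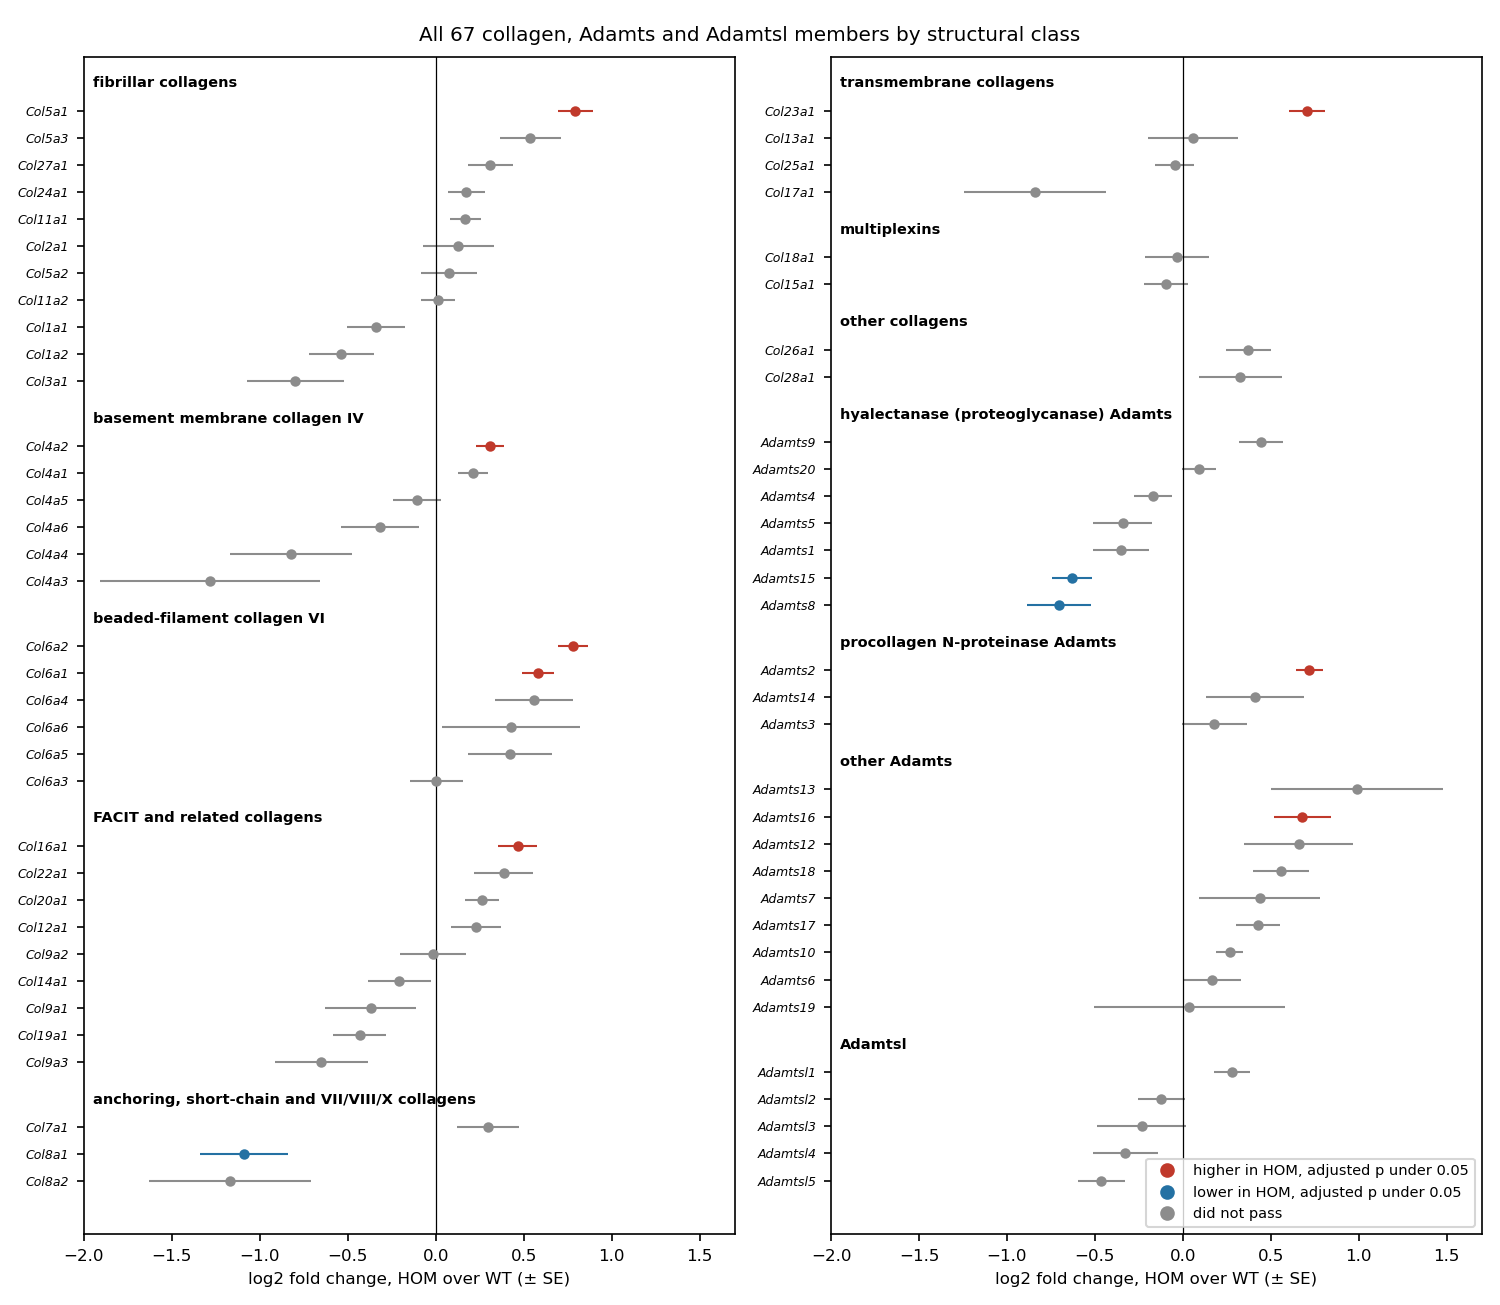
Log2 fold change of HOM over WT with its SE for each of the 67 members, grouped by structural class; coloured points passed the edgeR threshold of 0.05 and grey ones did not. All 9 genes of the mixed Adamts class and all 3 procollagen N-proteinase genes lie above 0, with 1 of each class past the threshold. Of 7 proteoglycanase genes 5 lie below 0, with 2 past the threshold. Over all 17395 genes tested 8737 had positive log2 fold changes.

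Collagen VI forms beaded filaments outside cells and is assembled from an alpha 1, an alpha 2 and 1 further chain. Its genes Col6a1 and Col6a2 rose in HOM while the alpha 3 chain gene Col6a3 stood at almost the same level in both genotypes. Col6a2 (ENSMUSG00000020241) stood at 31.4, 32.6, 30.6 and 36.2 CPM in HOM replicates 1 to 4, against 18.8, 21.2, 18.5 and 17.7 CPM in WT replicates 1 to 4. Every HOM library lay above every WT library, at a log2 fold change of 0.78 (SE 0.08, edgeR adjusted p = 0.000872). Col6a1 (ENSMUSG00000001119) stood at 88.2, 72.2, 85.1 and 96.3 CPM in HOM, against 59.2, 62.2, 55.0 and 52.0 CPM in WT. The groups again did not overlap, HOM replicate 2 being the lowest of the HOM libraries, and the log2 fold change was 0.58 (SE 0.09, adjusted p = 0.00673). Col6a3 stood at 3.04, 2.92, 3.19 and 2.65 CPM in HOM and 3.16, 3.36, 2.69 and 2.57 CPM in WT (log2 fold change 0.00, SE 0.15, adjusted p = 0.996), and its libraries overlapped fully. Col6a4 stood at 11.95, 7.17, 10.7 and 5.51 CPM in HOM and 6.60, 5.37, 7.27 and 4.79 CPM in WT, Col6a5 at 2.57, 2.49, 3.01 and 2.23 CPM in HOM and 2.14, 1.29, 1.43 and 2.79 CPM in WT and Col6a6 at 0.941, 0.492, 0.744 and 0.678 CPM in HOM and 0.865, 0.692, 0.287 and 0.254 CPM in WT, all with overlap. These 3 genes, for chains that can replace alpha 3, had positive log2 fold changes that did not pass, 0.56 (SE 0.22) for Col6a4, 0.42 (SE 0.24) for Col6a5 and 0.43 (SE 0.39) for Col6a6. Within a library the ratio of Col6a2 to Col6a3 CPM was 11.2 ± 1.76 in HOM and 6.50 ± 0.463 in WT, and that of Col6a1 to Col6a3 was 29.2 ± 5.03 in HOM and 19.5 ± 1.02 in WT (SD, n = 4 each). Neither ratio overlapped between genotypes. That of Col6a1 to Col6a2, 2.62 ± 0.274 in HOM and 3.00 ± 0.105 in WT, was lower in every HOM library than in any WT library. The ratios are a description of genes chosen for their change.

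**Figure D3:**
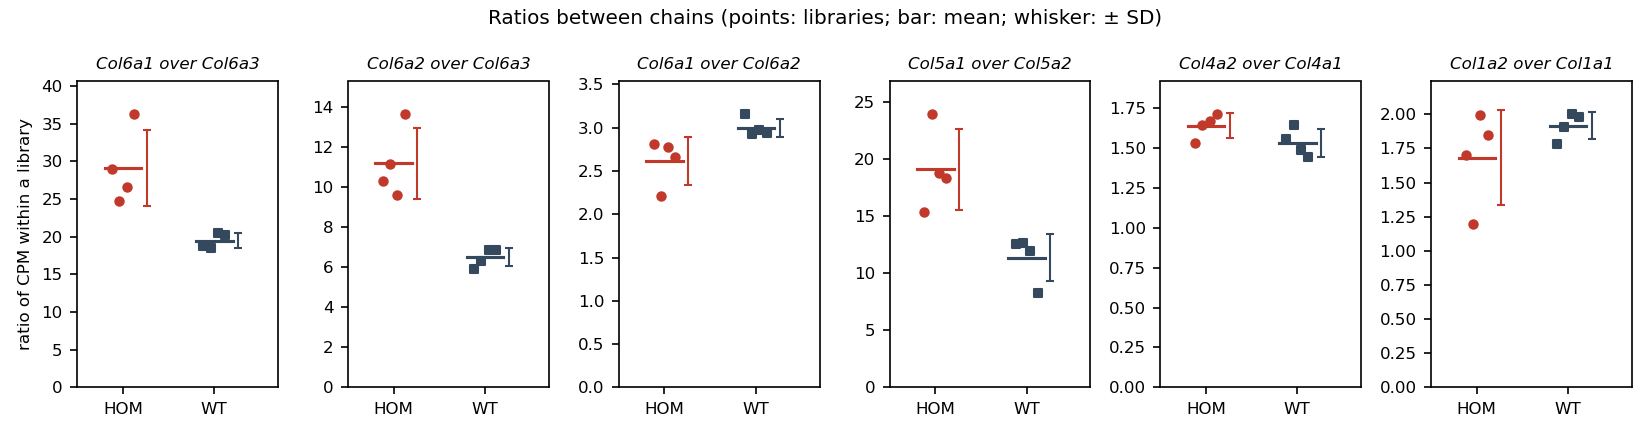
Ratio of CPM between chains of collagens VI, V, IV and I within each library (linear axes from 0), with HOM libraries as circles and WT libraries as squares, the mean as a bar and the SD as a whisker. The ratios of Col6a1 and Col6a2 to Col6a3 and of Col5a1 to Col5a2 are higher in every HOM library than in any WT library, that of Col6a1 to Col6a2 is lower in every HOM library, and those of Col4a2 to Col4a1 and Col1a2 to Col1a1 overlap.

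Col6a2 and Col6a1 are neighbours on the minus strand of chromosome 10 in GRCm38, at 76595762 to 76623630 and 76708792 to 76726168, with 85161 bases between them, and no other annotated gene overlaps either. Their promoter windows are shown because these neighbours rose together: chr10:76623581-76623880 and chr10:76725995-76726294, both minus strand, 250 bases before to 50 after the RefSeq start in GRCm38.p6. Capitals mark, on either strand, a GC box (GGGCGG) or the motif of a CCAAT box, a TATA box, AP-1 or Egr, whose letters are given with their shares over all genes where the members' windows are counted. The Col6a2 window holds 1 GC box, and the Col6a1 window holds 1 AP-1 motif and no GC box.
Col6a2: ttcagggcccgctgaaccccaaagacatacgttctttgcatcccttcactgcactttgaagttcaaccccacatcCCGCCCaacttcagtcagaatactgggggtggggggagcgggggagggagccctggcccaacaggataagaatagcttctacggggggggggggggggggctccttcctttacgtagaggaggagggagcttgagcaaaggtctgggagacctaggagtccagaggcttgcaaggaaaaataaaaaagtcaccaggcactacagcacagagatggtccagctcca
Col6a1: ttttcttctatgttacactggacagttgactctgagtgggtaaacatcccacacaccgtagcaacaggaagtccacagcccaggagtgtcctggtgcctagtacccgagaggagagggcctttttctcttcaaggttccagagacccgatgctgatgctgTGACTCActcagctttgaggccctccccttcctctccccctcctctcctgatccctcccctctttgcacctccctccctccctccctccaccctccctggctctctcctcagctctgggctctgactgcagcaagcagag

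Fibrillar collagens form the tensile fibrils of connective tissue, and collagen V sits inside fibrils of collagen I and sets their diameter. Of the 11 fibrillar genes 1 rose, or 9.09%, and none fell, where 2.47% of all genes tested were called higher. The class median was 0.13 on the log2 scale. The one that rose, the alpha 1(V) chain gene Col5a1 (ENSMUSG00000026837), stood at 80.6, 75.7, 91.2 and 80.4 CPM in HOM replicates 1 to 4, against 53.8, 48.7, 48.5 and 38.1 CPM in WT replicates 1 to 4. The groups were well apart, at a log2 fold change of 0.79 (SE 0.10, edgeR adjusted p = 0.00200), the largest among the members called higher. Its partner chains did not pass: Col5a2 averaged 4.41 ± 0.901 CPM in HOM and 4.19 ± 0.319 CPM in WT, and Col5a3 averaged 4.79 ± 0.925 CPM in HOM and 3.31 ± 0.478 CPM in WT (log2 fold change 0.54, adjusted p = 0.0865).

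Collagens I and III, the main fibrillar collagens of fibroblasts, had log2 fold changes of the opposite sign to that of Col5a1. Col1a2 stood at 8.27, 7.55, 9.39 and 14.2 CPM in HOM and 13.3, 11.8, 14.97 and 17.3 CPM in WT (edgeR adjusted p = 0.104; log2 fold change -0.54, SE 0.18). Only HOM replicate 4 reached the WT range. Col1a1 stood at 4.87, 6.33, 4.71 and 7.71 CPM in HOM and 7.49, 6.16, 7.49 and 8.75 CPM in WT with overlap (-0.34, adjusted p = 0.247), and Col3a1 averaged 1.25 ± 0.545 CPM in HOM and 2.19 ± 0.326 CPM in WT (-0.80, adjusted p = 0.109). Without HOM replicate 4 both Col1a2 (-0.75, adjusted p = 0.0188) and Col3a1 (-1.09, adjusted p = 0.0437) passed as lower. Summed CPM of 14 meningeal fibroblast markers was 328, 344, 265 and 699 in HOM replicates 1 to 4. In WT replicates 1 to 4 it was 405, 602, 574 and 684. HOM replicate 4 was thus the highest HOM library there too. Most of its sum was Ptgds, at 549 CPM against 498 CPM in WT replicate 4. The mean log2 CPM of the markers was 3.46 in HOM replicate 4 and 3.51 in WT replicate 4. The part of these cells in the result was not tested. With the mean level of these markers as a covariate the log2 fold change of Col1a2 was -0.23 (adjusted p = 0.388) and that of Col5a1 was 0.69 (adjusted p = 0.0116).

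The Col5a1 gene lies on the plus strand of chromosome 2, at 27886425 to 28039514, the chromosome that also carries Scn2a. The members Adamts13, Adamtsl2, Col9a3 and Col20a1 lie on it too, and none of them passed. The Col5a1 promoter window, chr2:27886175-27886474 on the plus strand, is shown as that of the fibrillar gene that rose. Capitals mark the same motifs, here 2 GC boxes.
Col5a1: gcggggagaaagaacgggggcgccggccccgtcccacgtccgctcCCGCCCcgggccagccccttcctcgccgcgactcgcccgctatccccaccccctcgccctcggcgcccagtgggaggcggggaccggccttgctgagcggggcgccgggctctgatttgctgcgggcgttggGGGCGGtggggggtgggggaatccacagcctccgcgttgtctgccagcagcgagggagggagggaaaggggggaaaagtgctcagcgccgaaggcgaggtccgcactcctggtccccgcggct

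Collagen IV is the network collagen of basement membranes, and its alpha 1 and alpha 2 chains form the trimer of brain vessels. Of 6 genes Col4a2 rose, none fell and 5 did not pass, where 2.47% of all genes tested were called higher. Col4a2 (ENSMUSG00000031503) stood at 69.1, 56.8, 67.7 and 65.3 CPM in HOM replicates 1 to 4, against 53.4, 56.4, 53.1 and 46.3 CPM in WT replicates 1 to 4. HOM replicate 2 lay barely above WT replicate 2, and the log2 fold change of 0.31 (SE 0.08) passed narrowly (edgeR adjusted p = 0.0492). Col4a1 stood at 45.1, 34.5, 40.5 and 38.2 CPM in HOM and 34.4, 34.4, 35.8 and 32.1 CPM in WT with overlap (log2 fold change 0.21, SE 0.09, adjusted p = 0.158). The Col4a2 to Col4a1 ratio, 1.64 ± 0.0759 in HOM and 1.53 ± 0.0869 in WT, overlapped between genotypes (SD, n = 4 each). Col4a2 passed in 2 of the 8 fits that leave out 1 library, those without WT replicate 2 and without HOM replicate 2, and did not pass with RLE scaling (adjusted p = 0.0524) or with the meningeal fibroblast covariate (adjusted p = 0.133).

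The annotated spans of Col4a1 and Col4a2 on chromosome 8 overlap at their starts, which lie 21 bases apart on opposite strands, Col4a1 running from 11312826 down to 11198423 and Col4a2 from 11312805 up to 11449287. The window chr8:11312555-11312854 on the plus strand, shown for this shared start region, holds 3 GC boxes, 1 CCAAT box and 1 Egr motif, the last overlapping a GC box.
Col4a2: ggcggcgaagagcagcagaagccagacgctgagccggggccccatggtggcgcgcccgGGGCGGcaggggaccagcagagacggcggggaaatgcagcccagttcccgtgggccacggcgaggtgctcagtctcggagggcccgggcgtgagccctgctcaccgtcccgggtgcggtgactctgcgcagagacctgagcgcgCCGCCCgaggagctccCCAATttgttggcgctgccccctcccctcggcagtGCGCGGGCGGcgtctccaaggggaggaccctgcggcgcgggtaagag

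The other collagen IV pairs are arranged in the same head-to-head way. Col4a4 and Col4a3 on chromosome 1 start 72 bases apart, and Col4a6 and Col4a5 on the X chromosome start 1309 bases apart. Col4a5 stood at 4.07, 4.32, 3.72 and 4.91 CPM in HOM and 4.38, 4.35, 4.26 and 5.36 CPM in WT (edgeR adjusted p = 0.681). Col4a6 stood at 2.19, 1.62, 1.52 and 1.69 CPM in HOM and 1.49, 2.08, 2.44 and 2.79 CPM in WT (adjusted p = 0.419). The libraries overlapped at both. Col4a3, the member nearest to the count rule with 4 to 58 counts and at least 10 in just 4 libraries, and Col4a4 are taken up with collagen VIII.

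Among the collagens anchored in the cell membrane, Col23a1 rose and Col13a1, Col17a1 and Col25a1 did not pass. That was 1 of 4 genes, where 2.47% of all genes tested were called higher. Col23a1 (ENSMUSG00000063564, chromosome 11, plus strand, 51289920 to 51583918) stood at 43.5, 35.8, 40.9 and 48.2 CPM in HOM replicates 1 to 4, against 26.8, 25.8, 28.7 and 21.9 CPM in WT replicates 1 to 4. The groups did not overlap, and the log2 fold change was 0.71 (SE 0.10, edgeR adjusted p = 0.00533). Its relative Col25a1, whose ectodomain is found in amyloid plaques, stood at 57.7, 49.2, 54.8 and 41.7 CPM in HOM and 51.4, 46.5, 49.8 and 62.4 CPM in WT, a difference within the spread between replicates (log2 fold change -0.05, adjusted p = 0.844). Exons make up 1.95% of the Col23a1 span, and the counts are taken to include intron reads.

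In the fibril-associated class of 9 genes 1 rose and none fell (median log2 fold change -0.02). Of all genes tested 2.47% were called higher. Col16a1 (ENSMUSG00000040690, chromosome 4, plus strand, 130047840 to 130099283) stood at 36.4, 26.5, 33.0 and 38.5 CPM in HOM, against 24.1, 26.1, 21.5 and 25.6 CPM in WT (edgeR adjusted p = 0.0353; log2 fold change 0.47, SE 0.11). HOM replicate 2 lay only just above the highest WT library, and the call held in 2 of the 8 fits without 1 library, those without WT replicate 2 and without HOM replicate 2. Col19a1, which mouse interneurons express, stood at 25.8, 29.9, 26.1 and 18.2 CPM in HOM and 42.0, 29.8, 34.0 and 28.9 CPM in WT; the groups overlapped (-0.43, SE 0.15, adjusted p = 0.107). The basement membrane genes Col15a1 and Col18a1, of which Col18a1 is the source of endostatin, had log2 fold changes of -0.10 (SE 0.13) and -0.03 (SE 0.18). Col15a1 stood at 6.81, 6.04, 6.05 and 6.36 CPM in HOM and 7.63, 6.92, 7.20 and 5.26 CPM in WT, with overlap. Col26a1 stood at 32.6, 28.1, 32.2 and 29.1 CPM in HOM and 27.6, 25.98, 23.5 and 17.3 CPM in WT without overlap (0.37, adjusted p = 0.101).

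Collagen VIII, a short-chain network collagen, was the collagen that fell. Col8a1 (ENSMUSG00000068196, chromosome 16, minus strand, 57624258 to 57754737) stood at 5.17, 3.58, 4.37 and 4.55 CPM in HOM replicates 1 to 4, against 8.33, 7.05, 6.52 and 15.8 CPM in WT replicates 1 to 4. WT replicate 4 was far above the other WT libraries, yet every HOM library lay below every WT library (edgeR adjusted p = 0.0316; log2 fold change -1.09, SE 0.25). The second chain gene, Col8a2, stood at 3.51, 1.58, 2.20 and 2.26 CPM in HOM and 4.46, 2.70, 2.29 and 12.1 CPM in WT (-1.17, SE 0.46, adjusted p = 0.152). Its groups overlapped, and WT replicate 4 was again the highest.

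Col9a3, Col4a3 and Col4a4 also peaked in WT replicate 4. Col9a3, a chain of the cartilage-type collagen IX, stood at 12.7, 9.10, 10.97 and 11.9 CPM in HOM and 14.5, 13.4, 11.3 and 31.2 CPM in WT. Col4a4 stood at 1.99, 0.808, 1.08 and 1.10 CPM in HOM and 2.001, 1.52, 1.54 and 3.84 CPM in WT. Col4a3 stood at 0.470, 0.387, 0.248 and 0.198 CPM in HOM and 0.865, 0.297, 0.143 and 1.84 CPM in WT. None of these 3 passed, at log2 fold changes of -0.65, -0.82 and -1.28. All 17 choroid plexus markers tested had negative log2 fold changes, from -3.27 to -1.02, with an unadjusted p under 0.05 (edgeR). Such a p was held by 3979 of all 17395 genes tested, in either direction. Of the 17 markers 7 passed as lower and 10 did not pass, where 2.94% of all genes tested were called lower. The markers summed to 251, 24.5, 40.5 and 29.5 CPM in HOM replicates 1 to 4 and 454, 376, 163 and 1824 CPM in WT replicates 1 to 4. No tested marker had every library at 0; Kcnj13, a further defining marker, is nested in another gene and stood at 0 in all 8. Without WT replicate 4 the log2 fold change of Col8a1 was -0.72 (adjusted p = 0.0308), that of Col8a2 -0.40 and that of Col9a3 -0.22. Adjusted for the mean log2 level of these markers it was -0.17 for Col8a1 (adjusted p = 0.786), 0.74 for Col8a2, 0.36 for Col9a3, 1.00 for Col4a3 and 0.36 for Col4a4, none of which passed. Nor did Col8a1 pass with the meningeal fibroblast covariate (-0.90, adjusted p = 0.129).

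**Figure D4:**
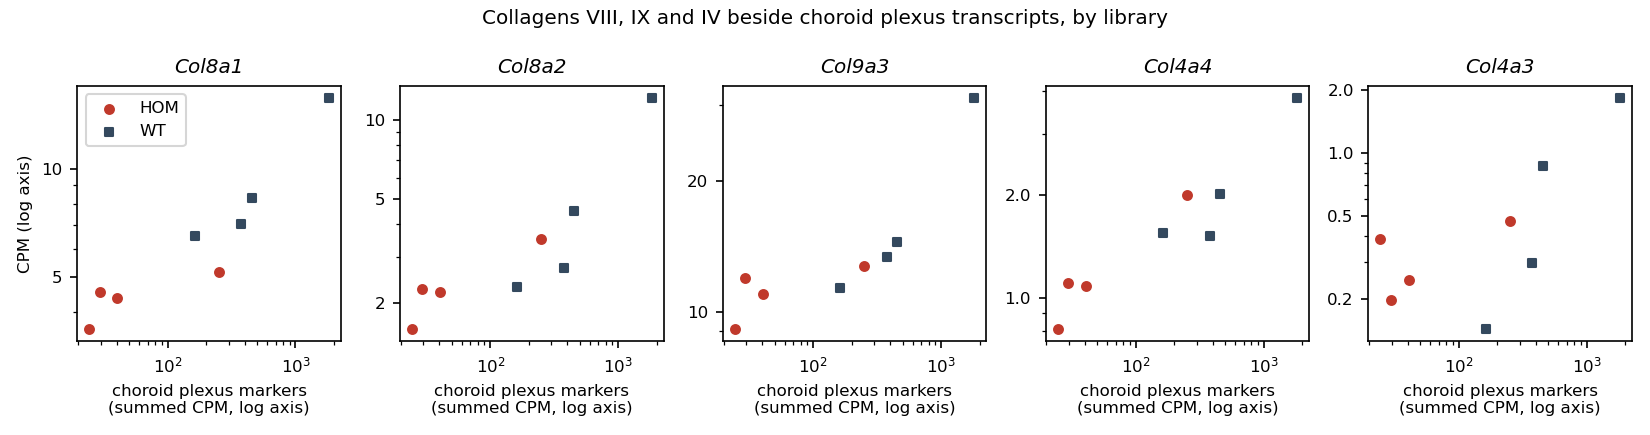
CPM of Col8a1, Col8a2, Col9a3, Col4a4 and Col4a3 in each library (log axis) against the summed CPM of 17 choroid plexus markers (log axis), HOM as circles and WT as squares. WT replicate 4, at 1824 CPM of markers, is the highest point in all 5 panels. Ttr alone gives 1517 CPM of that sum. The 3 HOM libraries lowest in markers lie at 24.5 to 40.5 CPM.

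The procollagen N-proteinases ADAMTS2, ADAMTS3 and ADAMTS14 remove the amino-terminal propeptide of fibrillar procollagens, and ADAMTS3 and ADAMTS2 also cut reelin. Of the 3 genes Adamts2 rose, where 2.47% of all genes tested were called higher. Adamts2 (ENSMUSG00000036545) stood at 32.1, 32.8, 31.6 and 37.1 CPM in HOM replicates 1 to 4, against 20.6, 19.9, 21.2 and 19.5 CPM in WT replicates 1 to 4. Libraries of a genotype lay close together and the genotypes far apart, at a log2 fold change of 0.72 (SE 0.07) and the smallest adjusted p of the members (edgeR, 0.000767). Adamts3 stood at 31.0, 37.1, 27.7 and 20.4 CPM in HOM and 34.5, 19.7, 22.3 and 25.8 CPM in WT, a difference within the spread between replicates (0.18, SE 0.19, adjusted p = 0.607). Adamts14 averaged 0.809 ± 0.194 CPM in HOM and 0.601 ± 0.134 CPM in WT (SD, n = 4 each; adjusted p = 0.404).

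Adamts2 lies on the plus strand of chromosome 11, at 50602084 to 50807573, and exons make up 4.54% of its span. Its promoter window chr11:50601835-50602134 on the plus strand, shown for the member of smallest p, holds 5 GC boxes (GGGCGG on either strand, capitals) and none of the other 4 motifs.
Adamts2: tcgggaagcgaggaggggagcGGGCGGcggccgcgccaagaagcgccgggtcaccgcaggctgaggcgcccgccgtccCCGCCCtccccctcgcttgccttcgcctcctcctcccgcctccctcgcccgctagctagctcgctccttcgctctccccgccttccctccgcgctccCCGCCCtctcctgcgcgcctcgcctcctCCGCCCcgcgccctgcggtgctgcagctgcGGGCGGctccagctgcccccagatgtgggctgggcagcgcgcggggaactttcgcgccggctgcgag

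Of the 7 genes of the proteoglycan-cutting class 2 fell, Adamts15 and Adamts8, and none rose, where 2.94% of all genes tested were called lower (median log2 fold change -0.34). Adamts15 (ENSMUSG00000033453), which encodes a versicanase, stood at 5.34, 4.71, 5.12 and 5.68 CPM in HOM, against 8.41, 8.60, 6.95 and 8.31 CPM in WT. The groups did not overlap (edgeR adjusted p = 0.0127; log2 fold change -0.63, SE 0.11). Adamts8 (ENSMUSG00000031994) stood at 1.60, 1.93, 1.92 and 1.47 CPM in HOM, against 3.33, 3.07, 2.54 and 2.32 CPM in WT (-0.70, SE 0.18, adjusted p = 0.0459). Its groups did not overlap either, but 45.8% of its span is shared with the gene Gm29724 and its counts ranged from 52 to 123, so its value is uncertain; the call held in 2 of 8 fits without 1 library, those without WT replicate 4 and without HOM replicate 2. It did not hold with upper-quartile scaling (adjusted p = 0.0554) or without the filter on low counts (adjusted p = 0.0537). The pair are neighbours on chromosome 9, Adamts15 on the minus strand from 30899155 to 30922452 and Adamts8 on the plus strand from 30942562 to 30963838, pointing away from each other with 20109 bases between.

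The remaining proteoglycanases did not pass. Adamts1 averaged 7.52 ± 1.16 CPM in HOM and 9.58 ± 2.01 CPM in WT, Adamts5 averaged 2.66 ± 0.243 CPM in HOM and 3.36 ± 0.640 CPM in WT, and Adamts4, an aggrecanase made by oligodendrocytes, averaged 19.2 ± 2.67 CPM in HOM and 21.6 ± 2.11 CPM in WT (SD, n = 4 each). Adamts20, a versicanase gene of the same class, stood at 25.9, 25.6, 28.1 and 21.2 CPM in HOM and 26.3, 21.5, 23.1 and 23.6 CPM in WT, with overlap. Adamts9 was also among those that did not pass, its libraries lying apart at 6.93 ± 0.794 CPM in HOM and 5.09 ± 0.534 CPM in WT (0.44, SE 0.13, edgeR adjusted p = 0.0599), with 28.6% of its span shared with other genes.

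Of the 9 other Adamts genes 1 rose, none fell and 8 did not pass, where 2.47% of all genes tested were called higher. The class holds Adamts10, which acts on fibrillin microfibrils, and Adamts13, which cuts von Willebrand factor. Its median log2 fold change was 0.44. Adamts16 (ENSMUSG00000049538, chromosome 13, minus strand, 70727802 to 70841811) stood at 10.6, 10.96, 11.6 and 7.94 CPM in HOM and 8.14, 5.90, 6.73 and 4.79 CPM in WT. HOM replicate 4 fell within the WT range (0.68, SE 0.16, edgeR adjusted p = 0.0360), and the call held in 2 of the 8 fits without 1 library, those without WT replicate 1 and without HOM replicate 4. With the meningeal fibroblast level as a covariate it was 0.37 (adjusted p = 0.135). Adamts10 stood at 32.9, 30.7, 32.6 and 36.7 CPM in HOM and 27.7, 29.5, 26.1 and 27.1 CPM in WT, without overlap (adjusted p = 0.0622). Libraries did not overlap either for Adamts17 (27.4 ± 3.45 CPM in HOM, 20.4 ± 3.39 CPM in WT) and Adamts18 (5.50 ± 0.840 CPM in HOM, 3.74 ± 0.606 CPM in WT), with adjusted p of 0.0662 and 0.0607. The highest log2 fold change of all members, 0.99 for Adamts13, rested on HOM replicate 1, at 5.51 CPM beside 0.878, 2.76 and 1.30 CPM in the other HOM libraries, against 0.716 to 1.91 CPM in WT (SE 0.49, adjusted p = 0.252).

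None of the 5 Adamtsl genes passed (edgeR), and their median log2 fold change was -0.24. An unadjusted p under 0.05 was held by 2 of them and by 3979 of all 17395 genes tested. Adamtsl5 stood at 4.09, 3.51, 3.88 and 4.83 CPM in HOM and 5.41, 6.33, 5.70 and 5.14 CPM in WT without overlap (-0.46, SE 0.13, adjusted p = 0.0631). Adamtsl1 stood at 15.3, 17.5, 15.3 and 12.9 CPM in HOM and 13.9, 12.3, 12.7 and 11.4 CPM in WT with overlap (0.28, SE 0.10, adjusted p = 0.134). DESeq2 called 1 of the 5, Adamtsl5, where it called 10.9% of all genes tested. Adamtsl2 (-0.12), Adamtsl3 (-0.24) and Adamtsl4 (-0.33) had negative log2 fold changes.

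The gene of the families that failed the count rule, Col10a1 on chromosome 10, lies wholly inside Nt5dc1 and stood at 0 in all 8 libraries, as did 1258 of the 1263 protein-coding genes nested in another gene, so its level was not measured. Just inside the rule were Col4a3, then Col6a6 with at least 10 counts in 6 libraries and Adamts7 and Adamts12 in 7. Per kilobase of exon the highest WT levels belonged to Col6a1 (19.5 CPM per kilobase in HOM, 13.0 in WT), Col4a2 (9.78 in HOM, 7.90 in WT) and Col5a1 (9.66 in HOM, 5.57 in WT). Since intron reads are taken to be included, the order differs per kilobase of unshared span, where Col6a1 (4.92 in HOM, 3.29 in WT) was followed by Adamts4 (2.07 in HOM, 2.34 in WT) and Adamts1 (0.810 in HOM, 1.03 in WT).

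The members not yet named did not pass and are given by their log2 fold changes. Among fibrillar collagens these were Col2a1 (0.13), the main collagen of cartilage, its relatives Col11a1 (0.17) and Col11a2 (0.01), and Col24a1 (0.17) and Col27a1 (0.31). In the fibril-associated class Col9a1 (-0.37), Col9a2 (-0.02) and Col14a1 (-0.21) were negative and Col12a1 (0.23), Col20a1 (0.26) and Col22a1 (0.39) positive. Of these 3 only Col20a1 had libraries without overlap. The anchoring fibril gene Col7a1 (0.29), Col28a1 (0.33) and Adamts6 (0.16) were positive. Adamts19 (0.04) stood at 1.47, 0.984, 1.21 and 0.734 CPM in HOM and 0.460, 0.330, 0.752 and 2.76 CPM in WT, WT replicate 4 again being the highest.

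RefSeq promoter windows in GRCm38.p6 matched 48 of the 67 members. A GC box (GGGCGG) stood in 70.8% of these 48 windows and in 35.9% of the 27025 windows of all genes, and the median GC content was 61.8% for members and 52.7% for all genes. Of the 7 matched members that rose 6 held a GC box. A TATA box, read as TATAAA, stood in 12.5% of the members' windows and 14.2% of all windows. The letters of the CCAAT box stood in 31.2% of the members' windows and 37.9% of all windows. An AP-1 motif, read as TGA and TCA with any base between them, was found in 2.08% of the members' windows and 7.93% of all windows. The Egr motif GCGNGGGCG was found in 8.33% of the members' windows and 5.55% of all windows. The Egr and GC box motifs can overlap and all were read on both strands. A match describes letters in the window and no more. The sets compared are unlike. A member's window was the one nearest its annotated start, and for all genes the first listed window was read. Those genes were not limited to protein-coding or expressed ones. The windows of Adamts20 and Col25a1 lie 61067 and 49343 bases from the annotated gene start.

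Genes that work with these proteins moved in both directions. Of all genes tested 5.4% were called, 2.47% higher and 2.94% lower. Called shares were 10.3% of the processing genes, 17.6% of the basement membrane partners and 20% of the receptors below. Of 29 collagen processing and cross-linking genes (median log2 fold change 0.09) 2 rose, the prolyl 3-hydroxylase family gene P3h3 (29.9 ± 3.87 CPM in HOM, 22.1 ± 1.06 CPM in WT) and the procollagen C-proteinase gene Bmp1 (92.0 ± 7.51 CPM in HOM, 74.3 ± 3.47 CPM in WT), and the prolyl 4-hydroxylase gene P4ha1 fell (47.0 ± 3.89 CPM in HOM, 61.2 ± 3.23 CPM in WT; SD, n = 4 each). Of 17 basement membrane partners (median -0.23) 1 rose and 2 fell. The peroxidase gene Pxdn, which cross-links collagen IV, was the one that rose (edgeR adjusted p = 0.0196; log2 fold change 0.35, SE 0.07). The fibronectin gene Fn1 (-0.53, SE 0.08) and the laminin beta 2 gene Lamb2 (-0.29, SE 0.07) fell. Among 10 collagen receptors (median 0.00) the integrin gene Itga11 rose (0.46, SE 0.11) and the receptor kinase gene Ddr2 fell (-0.59, SE 0.15).

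Of 15 genes for ADAMTS substrates and the matrix around neurons 3 fell and none rose (median log2 fold change -0.34, against 0.00 over all genes). That was 20% of the list, where 5.4% of all genes tested were called, 2.94% lower. The link protein gene Hapln4 averaged 64.5 ± 7.74 CPM in HOM and 104.9 ± 7.06 CPM in WT (-0.70, SE 0.09, edgeR adjusted p = 0.00174). The reelin gene Reln averaged 68.9 ± 4.34 CPM in HOM and 97.5 ± 10.9 CPM in WT (-0.50, SE 0.08, adjusted p = 0.00993), and the thrombospondin gene Thbs2 averaged 5.84 ± 0.684 CPM in HOM and 8.87 ± 0.238 CPM in WT (SD, n = 4 each). The proteoglycan genes Acan (-0.40, SE 0.14), Vcan (-0.34, SE 0.14), Ncan (-0.18, SE 0.06) and Bcan (-0.01, SE 0.09) did not pass. Of 19 microfibril and small proteoglycan genes (median -0.10) 1 rose, the fibrillin gene Fbn2 (0.56, SE 0.13), and Fbln5 (-0.53, SE 0.16) was among 18 that did not pass. The called share of that list, 5.26%, was near the 5.4% of all genes tested. None of the 11 inhibitors and matrix metalloproteinases tested (median -0.02) passed (edgeR), with 1 at an unadjusted p under 0.05. Over all 17395 genes tested 3979 had such a p. The smallest p of this list were those of Papln (0.39, SE 0.14) and A2m (-0.86, SE 0.43). Of 15 listed, Mmp3 and the inhibitor genes Timp1, Timp3 and Timp4 were not tested. These Timp genes, nested in other genes, stood at 0 in all 8 libraries, so their levels were not measured.

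Some markers of vascular and meningeal cells passed the test, all lower in HOM. They were 16.7% of pericyte and smooth muscle markers, 21.4% of endothelial and 21.4% of meningeal fibroblast markers. Of all genes tested 2.94% were called lower. All 14 endothelial markers had negative log2 fold changes. Pericyte and smooth muscle markers summed to 145 to 172 CPM in HOM and 185 to 198 CPM in WT, with 2 of 12 lower and none higher, and endothelial markers to 223 to 261 CPM in HOM and 272 to 337 CPM in WT, with 3 of 14 lower and none higher. Meningeal fibroblast markers had 3 of 14 lower and none higher. Neuronal markers summed to 8611 to 8999 CPM in HOM and 9625 to 10783 CPM in WT, with 2 of 7 lower. Of 6 astrocyte markers 1 was lower, or 16.7%, and all 6 had negative log2 fold changes. All 7 oligodendrocyte lineage markers were negative too, and none passed. The 5 microglial markers tested were all positive, and none passed. Of all 17395 genes tested 8658 had negative log2 fold changes. No tested marker of these lists was at 0 in every library; Foxc2, Ogn and the microglial P2ry12, nested in other genes, were not tested and stood at 0 in all 8. The part of these cells in the results was not tested beyond the covariate fits.

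Col6a2, Col6a1, Col5a1, Col23a1 and Adamts2 passed in all 8 fits that leave out 1 library, and Adamts15 in 7, the adjusted p being 0.0557 without HOM replicate 3. Col8a1 passed in 4, its adjusted p lying above 0.05 without any 1 HOM library. HOM replicate 2 was the lowest HOM library at 5 of the 8 members that rose and at 32 of the 67 members, where it was lowest at 29.8% of all genes tested. WT replicate 4, highest in choroid plexus markers, was the lowest WT library at 7 of the 8 members that rose, all but Col16a1, and at 25 of the 67 members, against 23.4% of all genes tested. Without HOM replicate 2, 11 members were higher and 2 lower, where 6.74% of all genes tested were called. The count of higher members was 5 without WT replicate 3, WT replicate 4, HOM replicate 1 or HOM replicate 3. Of all genes tested these fits called 1.03%, 2.74%, 1.21% and 1.02%, in that order. The count of lower members was 1 without HOM replicate 1 and 0 without HOM replicate 3. With all libraries edgeR gave 8 higher and 3 lower members and called 5.4% of all genes tested. With WT replicate 4 and HOM replicate 4 both left out 6 members were higher and 3 lower, where 1.93% of all genes tested were called. Adjusted for the same choroid plexus level no member passed and 34 of all genes did; the log2 fold changes were then 0.63 for Adamts2 (edgeR adjusted p = 0.0735), 0.67 for Col6a2 (0.0783), 0.63 for Col5a1 (0.117), 0.55 for Col6a1 (0.150) and 0.56 for Col23a1 (0.171). That level, a mean log2 CPM, was -0.44 to 1.45 in HOM and 1.15 to 4.04 in WT, so in this fit genotype and that level cannot be fully told apart.

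**Figure D5:**
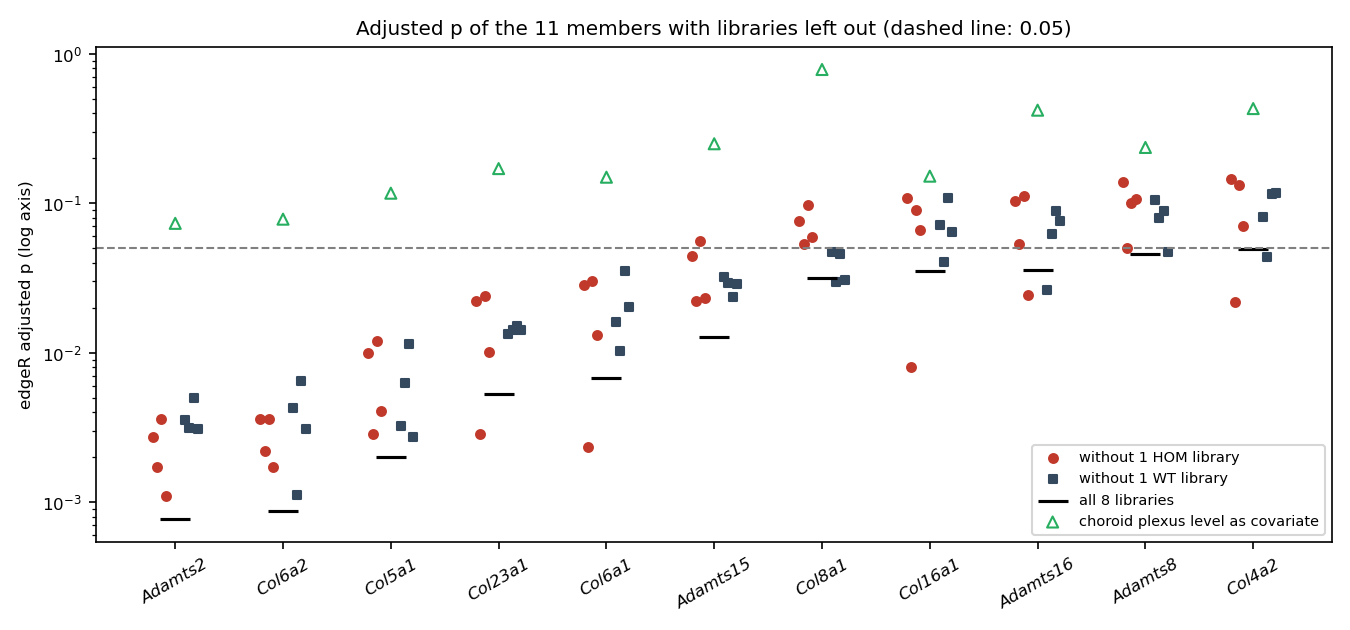
Adjusted p (log axis, edgeR quasi-likelihood test) of the 11 members that passed, with all 8 libraries (dash), with 1 HOM library (circles) or 1 WT library (squares) left out, and after adjustment for choroid plexus transcripts (triangles). The circles and squares of the first 5 genes, Adamts2 to Col6a1, all lie below the dashed line at 0.05, and every triangle lies above it.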

How the data were processed

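RNA-seq was compared between 4 HOM and 4 WT samples, grouped by their titles. The deposited table holds whole read counts for each Ensembl gene, which the authors had not normalized. Per the labels, the libraries were stranded, paired-end TruSeq libraries of total RNA. STAR, featureCounts, edgeR and FastQC 0.11.3 and the build GRCm38 are named per the submitters' processing notes; annotation, strandedness of counting and other versions: not given in the sources used here. Since nearly all nested genes stood at 0 whatever their strand, the counts are taken to cover gene bodies without regard to strand and to drop shared reads; overlapping genes are uncertain. GENCODE mouse release M21 held 54409 of the 54446 gene identifiers.

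Tests used edgeR 4.0.16 in R 4.3.3 (quasi-likelihood F test, TMM scaling, filterByExpr at its defaults), with Benjamini-Hochberg adjustment over all 17395 genes. SE is the log2 fold change over the root of F. All replicate pairs differed beyond sampling noise (chi-square of at least 7.09 per degree of freedom). Named genes were Scn2a, all members past the threshold, the member of highest level and of smallest p in each class, all chains of collagens I, IV and VI, and the 2 partners of smallest p in each list; other members are named to give a value. Members and lists were chosen with earlier results of these data known. Alternatives were DESeq2 1.42.0, limma-voom (limma 3.58.1), other scalings and filters, a replicate block, covariates and leaving out libraries. Depth limits the lowest members to a few counts per library.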

Additional observations from a re-analysis of the deposited data

Results flagged for a closer look

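Among 134 groups of 4 libraries examined, 2 for each of the 67 members, 4 held a library that stood apart from the other 3 by Dixon's ratio, where chance flags about 1 in 20 groups. Col9a3 stood at 31.2 CPM in WT replicate 4, against 11.3 to 14.5 CPM in the other WT libraries. Adamts17 stood at 15.3 CPM in WT replicate 4, against 21.7 to 22.3 CPM in the others. Col4a5 stood at 5.36 CPM in WT replicate 4, against 4.26 to 4.38 CPM. Adamts9 stood at 4.30 CPM in WT replicate 3, against 5.27 to 5.42 CPM. None of the 4 genes was among the 11 that passed, and 3 of the 4 values belong to the library richest in choroid plexus transcripts.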

How the results depend on the processing

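With all 8 libraries 940 genes were called, 8 members higher and 3 lower. RLE and upper-quartile scaling, limma-voom, robust quasi-likelihood, both filters and the meningeal fibroblast covariate kept each of these counts within 1.5 times, but not every call: Col4a2 was lost with RLE, Adamts8 with upper-quartile scaling and without the filter, and Col4a2, Col8a1 and Adamts16 with the meningeal covariate, under which Col19a1 passed. DESeq2 called 1900 genes, 14 members higher and 7 lower. Leaving out 1 library gave 180 to 1187 genes (180 to 552 without any library other than WT replicate 2 or HOM replicate 2), 5 to 11 members higher and 0 to 3 lower. Without WT replicate 4 and HOM replicate 4 together 335 genes were called, and with the choroid plexus covariate 34 genes, 0 members higher and 0 lower. The replicate block called 364 genes, 6 members higher and 3 lower. The correlation of deviations between same-numbered libraries was 0.05, -0.20, -0.01 and 0.03. Between libraries of different number it ran from -0.21 to 0.25. These values show no pairing by number, but they cannot exclude one. Other count rules left 63 members (10 counts in all 8 libraries) or 60 (1 CPM in 4).

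Among the genes named by the rule above, log2 fold changes that turned sign belonged to genes that had not passed. With the choroid plexus covariate Col25a1 was 0.27, Col4a4 0.36, Col4a3 1.00, Col4a5 0.016, Col6a3 -0.039 and A2m 0.87. Col8a2 (0.74) and Col9a3 (0.36), which are outside that rule, turned sign there too. With the meningeal fibroblast covariate Adamts3 was -0.13, Adamts20 -0.081, Col4a5 0.064 and Col6a3 -0.14. Without both replicates 4 Col25a1 was 0.14 and Col6a3 -0.0047. Without 1 library Col25a1 ranged from -0.10 to 0.056 and Col6a3 from -0.060 to 0.069. The cause was not tested.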
